A study of Saccharomyces cerevisiae with 60 samples.

Results

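Wild-type budding yeast (Saccharomyces cerevisiae, W303 background) held at 37 °C for 10 min was compared with the same strain state kept at 25 °C, by sequencing of poly(A) RNA. The members were the libraries whose titles name wild type with one of these conditions, 3 at 37 °C for 10 min and 3 at 25 °C without heat, so 6 of the 60 libraries of the series. "Wild type" here is a strain with an anchor-away tag on the heat shock factor Hsf1, grown in rich medium with adenine (YPD-A) at 25 °C and given the solvent DMSO for 45 min before heat. In an anchor-away strain, rapamycin ties the tagged nuclear protein to one that leaves the nucleus, and none of these cells received it. Further wild-type libraries, 3 at 37 °C for 30 min and 3 at 42 °C for 10 min, carried the same tag and received the same DMSO, and served to place the 10 min response among the others. The remaining groups of the series are wild type at 42 °C for 30 min and cells that lack Hsf1 in the nucleus, MSN2 and MSN4, or both. They were not compared here. They did enter the choice of genes to test, the scaling, the average levels over all libraries and the shared estimate of the spread.

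Budding yeast meets a rise in temperature with several programmes at once. Hsf1 binds heat shock elements in the promoters of chaperone genes, whose products hold, refold or disaggregate proteins. The related factors Msn2 and Msn4 enter the nucleus when protein kinase A activity drops and bind the stress response element AGGGG at genes for reserve carbohydrates, oxidative defence and many others. In the same minutes the genes that build ribosomes, many with the promoter elements RRPE and PAC, are turned down.

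Each library held a raw read count per gene, and levels are given as CPM, the count scaled to a common library size, after TMM scaling, which adjusts that size for the composition of each library. The 3 libraries at 37 °C for 10 min held 4528652, 3848210 and 7772925 counts, and the 3 at 25 °C held 5724393, 5295784 and 8016702. Of 7126 features, 6070 had enough counts to be tested. Calls, up or down against 25 °C and higher or lower against other heat conditions, needed an adjusted p under 0.05 in edgeR's quasi-likelihood test together with a log2 fold change of 1 or more in size. Each log2 fold change stands with an approximate standard error, its size divided by the square root of the test's F statistic. The fit covered all 60 libraries, so all groups share 1 estimate of the spread. Since the labels do not say whether replicates were grown separately, the p-values reflect only how much these libraries varied. Replicate 3 at 37 °C for 10 min stood somewhat apart, with a TMM factor of 0.63 against 0.81 and 0.85 in replicates 1 and 2, and the factors at 25 °C lay between 0.99 and 1.25. MSN2 and MSN4, which the deletion strains of the series lack, had reads in all 6 libraries. HSF1, SSA1, CPR6, CCT6, CCT8, SSB1, HAC1, GRX2, GPH1, HXK1, GLK1, TKL2, GPD1, YAK1, IFH1, NSR1, RPL22A, URA7, IMD4, CAR2, STE3, MNC1 and DIA1 overlap another annotated feature, on the same strand or the opposite one, and whether counting used the strand is not given in the sources used here, so their values are uncertain. In bulk RNA, a change in every cell and a larger change in some of the cells cannot be told apart.

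At 37 °C for 10 min 1274 genes were called up (21% of those tested) and 1347 were called down (22.2%) relative to 25 °C. The median log2 fold change over all tested genes was -0.04. Of the calls, 264 rose and 319 fell by at least 3 on the log2 scale. Genes whose 3 libraries at 37 °C for 10 min all lay above the 3 at 25 °C numbered 1638 (27%), and those with all 3 below numbered 1821 (30.0%). The split of the calls depended on the scaling: 48.6% of them were rises with TMM, and 29.1% with plain library totals, which gave 803 rises and 1959 falls and moved the median of all genes to -0.54. Changes are therefore relative to the TMM scale.

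**Figure D1:**
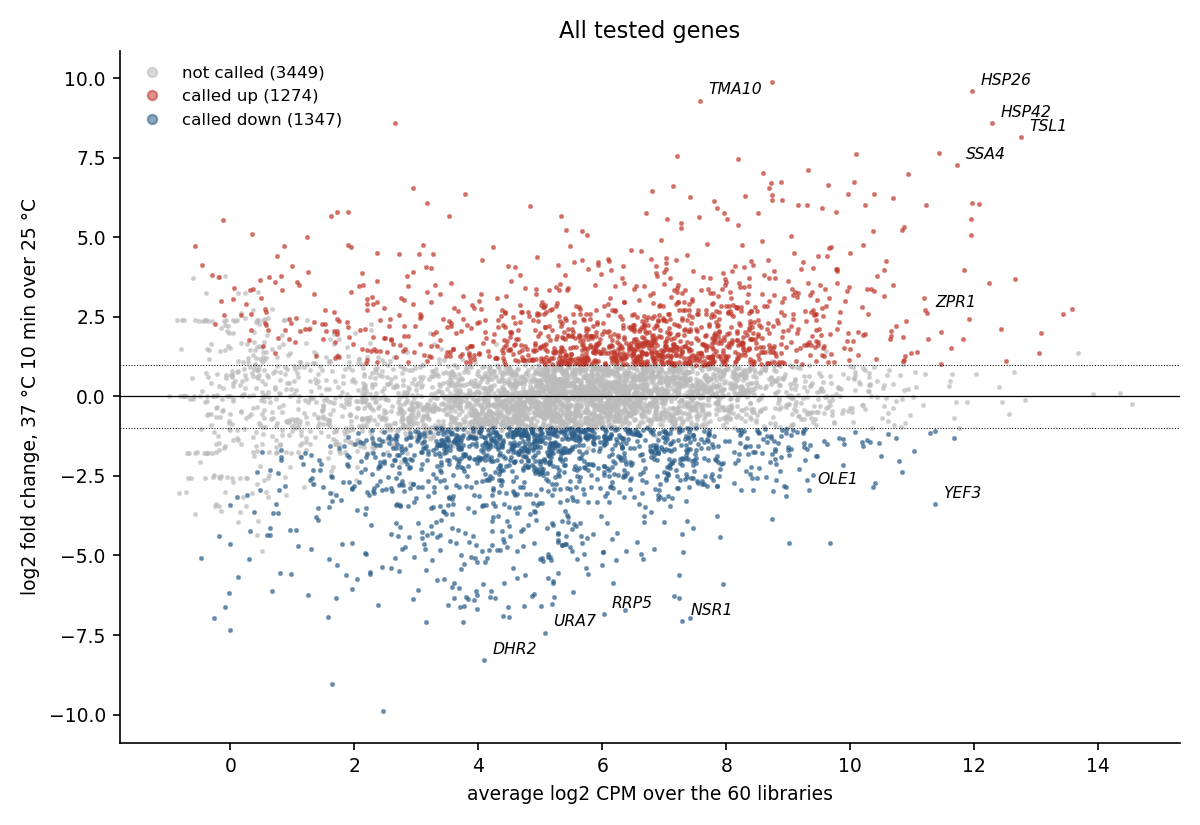
Average level over all libraries (x axis, log2 CPM) against the change at 37 °C for 10 min relative to 25 °C (y axis, log2 fold change), 1 point per tested gene, with the 1274 genes called up, the 1347 called down and the 3449 not called in separate colours. The coloured clouds lie on both sides of 0 at low and high levels alike.

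The genes of 3 stress transcription factors were read first. HSF1 (YGL073W), the gene of the heat shock factor itself, had 215, 268 and 324 CPM at 37 °C for 10 min, against 81.0, 75.9 and 78.3 CPM at 25 °C. All 3 heated libraries lay above all 3 at 25 °C, and the log2 fold change was 1.78 ± 0.21 (adjusted p = 1.07e-09, edgeR). MSN2 (YMR037C) had 189, 209 and 433 CPM in heat and 99.3, 118 and 113 CPM at 25 °C. MSN4 (YKL062W) had 241, 369 and 708 CPM in heat and 94.8, 173 and 172 CPM at 25 °C. Neither pair of groups overlapped, although replicate 3 at 37 °C for 10 min lay well above its own group for both genes. The log2 fold changes were 1.33 ± 0.35 for MSN2 (adjusted p = 0.00171) and 1.58 ± 0.39 for MSN4 (adjusted p = 0.00077). MSN2 was not called without replicate 3 at 37 °C (0.93), and neither gene was called with library totals (0.76 for MSN2 and 0.99 for MSN4).

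Promoters are shown for 4 genes that rose steeply, HSP26, SSA4, CTT1 and TSL1, and for 2 that fell steeply, URA7 and RRP5, since their sites can be read against the values that follow. Each line holds 180 bases, from 300 to 121 bases before the annotated start of the gene, in the direction of the gene, from the RefSeq R64 genome. Capitals mark the stress response element (AGGGG, or CCCCT on the other strand) in the rising genes, and RRPE (AAAATTTT) and PAC (CGATGAG, or CTCATCG on the other strand) in the falling genes.
HSP26, chrII:381730-381909, plus strand: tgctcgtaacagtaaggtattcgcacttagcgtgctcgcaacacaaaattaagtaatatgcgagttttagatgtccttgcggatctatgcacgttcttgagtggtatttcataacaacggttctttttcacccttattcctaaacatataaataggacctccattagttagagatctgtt
SSA4, chrV:364289-364468, plus strand: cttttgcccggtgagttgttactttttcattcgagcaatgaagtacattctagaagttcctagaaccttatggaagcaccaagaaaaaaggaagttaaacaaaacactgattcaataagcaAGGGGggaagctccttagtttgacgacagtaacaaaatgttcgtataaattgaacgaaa
CTT1, chrVII:654334-654513, plus strand: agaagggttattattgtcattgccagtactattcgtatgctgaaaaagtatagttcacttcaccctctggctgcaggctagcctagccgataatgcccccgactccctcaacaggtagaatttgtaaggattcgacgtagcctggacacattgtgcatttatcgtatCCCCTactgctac
TSL1, chrXIII:70324-70503, plus strand: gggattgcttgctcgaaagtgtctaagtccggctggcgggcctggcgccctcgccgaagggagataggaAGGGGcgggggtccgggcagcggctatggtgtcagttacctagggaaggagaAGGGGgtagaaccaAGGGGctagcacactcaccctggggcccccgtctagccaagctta
URA7, chrII:145849-146028, minus strand: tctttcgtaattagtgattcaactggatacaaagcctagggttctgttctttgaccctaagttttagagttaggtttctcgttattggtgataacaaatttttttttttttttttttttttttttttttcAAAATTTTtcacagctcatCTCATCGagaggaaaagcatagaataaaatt
RRP5, chrXIII:731244-731423, minus strand: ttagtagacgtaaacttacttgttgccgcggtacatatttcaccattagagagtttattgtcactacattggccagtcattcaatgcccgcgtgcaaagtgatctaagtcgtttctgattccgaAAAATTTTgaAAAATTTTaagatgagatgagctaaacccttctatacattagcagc
TSL1 held 3 stress response elements in this stretch, SSA4 and CTT1 held 1 each, and the HSP26 stretch held none of the letters searched. URA7 held 1 RRPE and 1 PAC, and RRP5 held 2 RRPE sites.

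Genes whose products handle aggregated proteins rose as a whole list: all 5 tested members were called up, with a median log2 fold change of 6.25, where the median of all genes was -0.04. This list and those below were chosen with earlier results of these data known, so such counts describe the listed genes and are no test. HSP26 (YBR072W, chromosome II, 382030 to 382674), a small heat shock protein that binds unfolding proteins, had 3306, 8172 and 3771 CPM at 37 °C for 10 min, against 6.96, 6.11 and 6.66 CPM at 25 °C. The heated libraries lay far above the others with no overlap, and the log2 fold change was 9.59 ± 0.75 (adjusted p = 5.08e-15, edgeR). HSP42 (YDR171W), the second small heat shock protein, which gathers aggregates into deposits, had 8260.3, 9735 and 15628 CPM in heat and 39.1, 11.8 and 36.5 CPM at 25 °C (log2 fold change 8.58 ± 0.57). HSP104 (YLL026W), the disaggregase that pulls proteins out of aggregates, had 5874, 5679 and 4102 CPM in heat and 124, 56.9 and 149 CPM at 25 °C (5.56 ± 0.32). The sorting factors BTN2 and CUR1 had log2 fold changes of 6.25 ± 0.47 and 3.52 ± 0.33. Together the 5 genes held 1.75 ± 0.334% of all counts at 37 °C for 10 min and 0.0196 ± 0.00990% at 25 °C (SD, n = 3 each).

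**Figure D2:**
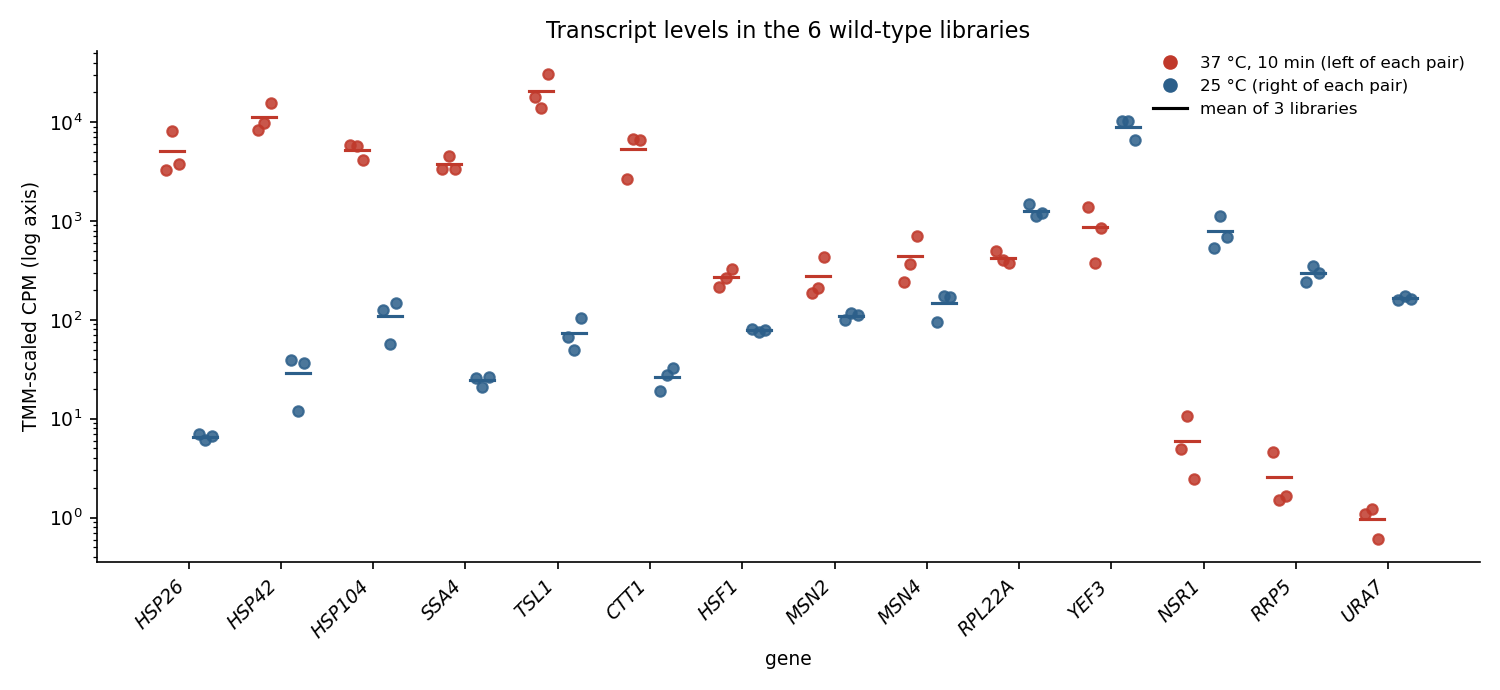
Levels of 14 genes (y axis, CPM on a log axis) in each of the 3 libraries at 37 °C for 10 min (left, red) and the 3 at 25 °C (right, blue), with a bar at the mean of 3. HSP26, HSP42, HSP104, SSA4, TSL1 and CTT1 differ by well over 10-fold between the conditions, HSF1, MSN2 and MSN4 by less, and the last 5 genes are lower in heat.

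The cytosolic Hsp70 system, which folds and refolds proteins with its cochaperones, had 9 of 14 members called up and 1 called down (2 without replicate 2 at 37 °C for 10 min), with a median of 2.56. SSA4 (YER103W), the heat-induced Hsp70, had 3387, 4553 and 3361 CPM at 37 °C for 10 min, against 26.1, 21 and 26.6 CPM at 25 °C. The groups were far apart, and the log2 fold change was 7.26 ± 0.40 (adjusted p = 1.21e-19, edgeR). Its paralogs rose by less, with log2 fold changes of 4.10 ± 0.42 for SSA3, 3.71 ± 0.30 for SSA1 and 1.49 ± 0.24 for SSA2, the form that is abundant without stress. SSA1 and SSA2 are nearly identical and SSA1 overlaps a dubious open reading frame, so reads may be divided between them. The nucleotide exchange factors rose too, SSE2 by 4.80 ± 0.40, FES1 by 3.09 ± 0.37 and SSE1 by 2.04 ± 0.21, as did the J-domain protein SIS1 by 3.16 ± 0.25. YDJ1, the other main cytosolic J-domain protein, stayed just under the fold threshold at 0.96 ± 0.19. SNL1, an exchange factor tethered in the membrane, fell by 3.07 ± 0.52.

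Of the 13 members of the Hsp90 system 4 were called up and 2 down, next to 21% and 22.2% of all tested genes. Their median of 0.15 became -0.39 with library totals. HSP82, the inducible Hsp90, had 759.9, 595 and 602 CPM at 37 °C for 10 min, against 68, 15.5 and 39 CPM at 25 °C, with no overlap and a log2 fold change of 4.00 ± 0.34. HSC82, the constitutive form, had 1823, 1705 and 1001 CPM in heat and 1192, 746 and 1322 CPM at 25 °C. Those groups overlapped, and its log2 fold change was 0.47 ± 0.34 (adjusted p = 0.232, edgeR), so a rise was not detectable. Among the cochaperones, STI1 (3.96 ± 0.28), AHA1 (3.45 ± 0.20) and CPR6 (2.35 ± 0.46) rose, whereas CNS1 (-3.63 ± 0.54) and CPR7 (-1.28 ± 0.29) fell.

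Chaperones outside the cytosol followed a mixed course. Of 10 mitochondrial chaperone genes, 5 were called up and 1 was called down (median 1.36). HSP78, the mitochondrial disaggregase, had 2110.0, 2193 and 2592 CPM in heat and 39.6, 18.1 and 48 CPM at 25 °C, a log2 fold change of 6.02 ± 0.36 with no overlap. The J-domain protein MDJ1 rose by 3.25 ± 0.39 and the Hsp70 SSC1 by 2.11 ± 0.27, while the exchange factor MGE1 fell by 1.27 ± 0.42. MGE1 was not called without replicate 3 at 37 °C (-1.07) or without replicate 3 at 25 °C (-0.92). In the endoplasmic reticulum list 5 of 17 members rose and 2 fell, next to 21% and 22.2% of all tested genes. The median of that list, 0.35, became -0.15 with library totals. Only 1 fell without replicate 3 at 37 °C for 10 min, without replicate 1 at 25 °C or with no filter. KAR2, the Hsp70 of that compartment, rose by 2.59 ± 0.29, the disulfide isomerase MPD1 by 2.18 ± 0.22 and the oxidase ERO1 by 1.82 ± 0.23. HAC1, whose spliced RNA encodes the activator of the unfolded protein response, had a log2 fold change of 0.31 ± 0.38 with overlapping groups, and gene counts do not show splicing.

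Chaperones that serve newly made proteins went down. Of the 14 chaperonin and prefoldin genes, 12 were called down and none was called up, with a median of -1.71. Without replicate 3 at 37 °C the prefoldin genes GIM4 (-2.29) and YKE2 (-3.04) were not called. GIM4 was also not called without replicate 2 at 37 °C (-2.22) or without replicate 3 at 25 °C (-2.20). CCT8, a chaperonin subunit, had 71.7, 67.6 and 36.2 CPM at 37 °C for 10 min, against 287, 248 and 241 CPM at 25 °C (log2 fold change -2.15 ± 0.28). The members that were not called with all libraries were CCT6, at -0.98 ± 0.38 just inside the fold threshold, and PFD1. The values of PFD1, up to 0.913 CPM in heat and up to 2.29 CPM at 25 °C, rest on a few reads. Of 7 chaperones bound to the ribosome, 6 were called down and none up (median -1.17). BTT1 was not called without replicate 3 at 37 °C (-0.78). SSZ1 was not called without replicate 2 at 37 °C (-0.86) or without replicate 2 at 25 °C (-0.91). The Hsp70s that sit at the ribosomal exit, SSB1 and SSB2, fell by 2.44 ± 0.41 and 1.71 ± 0.37, and they share long identical stretches, so their reads may be divided between them.

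Small stress proteins formed a further list with wide changes: 15 of 16 were called up and none down, with a median of 5.06. TMA10 (YLR327C), a small protein that associates with ribosomes, had 376, 293 and 522 CPM in heat and 0.696, 0.382 and 0.696 CPM at 25 °C, where each value stands for a handful of reads. The groups did not overlap, and the log2 fold change was 9.30 ± 0.66. DDR2 and SPI1, both classic targets of Msn2 and Msn4, rose by 7.55 ± 0.69 and 6.98 ± 0.53. HSP12, a membrane-associated stress protein, had 182, 1409 and 300.03 CPM in heat and 1.56, 16.4 and 45.2 CPM at 25 °C. It rose by 4.88 ± 0.93, but both groups were wide. The exception in the list was HOR7, with overlapping groups at 1.34 ± 0.64 (adjusted p = 0.068, edgeR).

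In oxidative defence 13 of 27 genes were called up and 1 was called down (median 0.99), with none called down without replicate 3 of either condition. Paralogs differed from each other. CTT1 (YGR088W), the cytosolic catalase, had 2656, 6704 and 6539 CPM at 37 °C for 10 min, against 19, 27.7 and 32.8 CPM at 25 °C, and rose by 7.64 ± 0.54 (adjusted p = 2.4e-16, edgeR). The mitochondrial superoxide dismutase SOD2 rose by 3.12 ± 0.39, while the cytosolic SOD1 had overlapping groups and 0.56 ± 0.39. The peroxiredoxin TSA2 rose by 3.71 ± 0.49, while the main form TSA1 changed by 0.71 ± 0.25, under the fold threshold. The glutaredoxin GRX2 rose by 3.26 ± 0.33.

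Reserve carbohydrate genes rose almost without exception. All 7 genes of trehalose metabolism were called up, with a median of 3.55. TSL1 (YML100W), a subunit of the trehalose synthase complex, had 18019.6, 13831 and 30622 CPM in heat and 66.4, 49.4 and 105 CPM at 25 °C, a log2 fold change of 8.14 ± 0.58 (adjusted p = 3.15e-16, edgeR). The catalytic subunits TPS2 and TPS1 rose by 5.21 ± 0.37 and 3.93 ± 0.30. Genes that break trehalose down rose beside those that make it, NTH1 by 3.55 ± 0.28 and ATH1 by 3.34 ± 0.24. The trehalose genes held 2.23 ± 0.410% of counts at 37 °C for 10 min and 0.0728 ± 0.0184% at 25 °C (SD, n = 3 each). In glycogen metabolism 13 of 14 genes rose and none fell, with a median of 4.19. The synthase genes GSY1 and GSY2 rose by 3.94 ± 0.32 and 4.13 ± 0.43, the branching enzyme GLC3 by 5.58 ± 0.49, and GPH1, which cleaves glycogen, by 6.73 ± 0.65. PGM2, the main phosphoglucomutase, had 2097, 2025 and 1712 CPM in heat and 23.8, 13.5 and 20.5 CPM at 25 °C (6.65 ± 0.44), whereas its paralog PGM1 had overlapping groups at -0.26 ± 0.19.

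Paralogs also differed in sugar metabolism. In glycolysis 9 of 21 genes rose and none fell, and its median of 0.35 became -0.15 with library totals. The hexose kinases HXK1 and GLK1 rose by 5.80 ± 0.51 and 5.07 ± 0.53, while HXK2, the main form in glucose, had 0.23 ± 0.25 with overlapping groups. Of the 3 glyceraldehyde phosphate dehydrogenase genes, TDH1 rose by 4.68 ± 0.48 and TDH3 by 1.36 ± 0.41, while TDH2 had -0.28 ± 0.38. These 3 share long identical stretches. In the pentose phosphate pathway 5 of 11 genes rose and 1 fell, next to 21% and 22.2% of all tested genes. The median of that list, 0.03, became -0.44 with library totals. The minor isozymes of the pathway, SOL4 (6.71 ± 0.51) and TKL2 (6.28 ± 0.83), rose, while their main forms SOL3 (-0.42 ± 0.23) and TKL1 (-0.89 ± 0.31) were not called. RKI1, the gene of ribose phosphate isomerase, fell, with 1.91, 0.304 and 0.613 CPM in heat and 64.5, 80.7 and 79.2 CPM at 25 °C (-6.30 ± 0.58). In the heated libraries 3 counts equal 0.613 to 0.913 CPM, so the size of this fall rests on a few reads.

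Glycerol and osmotic stress genes had 7 of 12 members up and 1 down (median 1.54). GPD1 rose by 3.37 ± 0.31 and GPP2 by 2.59 ± 0.33, which encode the stress forms of the enzymes that make glycerol. Their paralogs did not follow: GPD2 had 0.62 ± 0.33 with overlapping groups, and GPP1 fell by 1.48 ± 0.33. Among hexose transporters and sensors 6 of 12 were called up (3 with library totals) and 2 down. The shares over all tested genes were 21% up and 22.2% down. HXT5, a transporter of slow-growing cells, rose by 6.01 ± 0.56, and HXT1, the low-affinity transporter for abundant glucose, fell by 5.11 ± 0.61.

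Genes of the Ras and protein kinase A pathway, which signals glucose and restrains Msn2 and Msn4, were called up in 10 of 16 cases and down in 2 (median 1.68). Both brakes and drivers were among the rises. YAK1, a kinase that acts against the pathway, rose by 4.43 ± 0.43, and IRA2, which turns Ras off, by 3.77 ± 0.35, while its paralog IRA1 had 0.58 ± 0.22. TPK2, which encodes a catalytic subunit of the kinase, rose by 2.49 ± 0.21, and BCY1, which encodes the regulatory subunit, by 1.99 ± 0.33. TPK3, which also encodes a catalytic subunit, fell by 1.53 ± 0.24. RAS2 rose by 1.39 ± 0.32 and RAS1 fell by 3.13 ± 0.49. Of 17 stress transcription factor genes 12 were called up and none down (median 1.58), among them the repressor XBP1 (6.56 ± 0.80) and USV1 (5.77 ± 0.54).

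**Figure D3:**
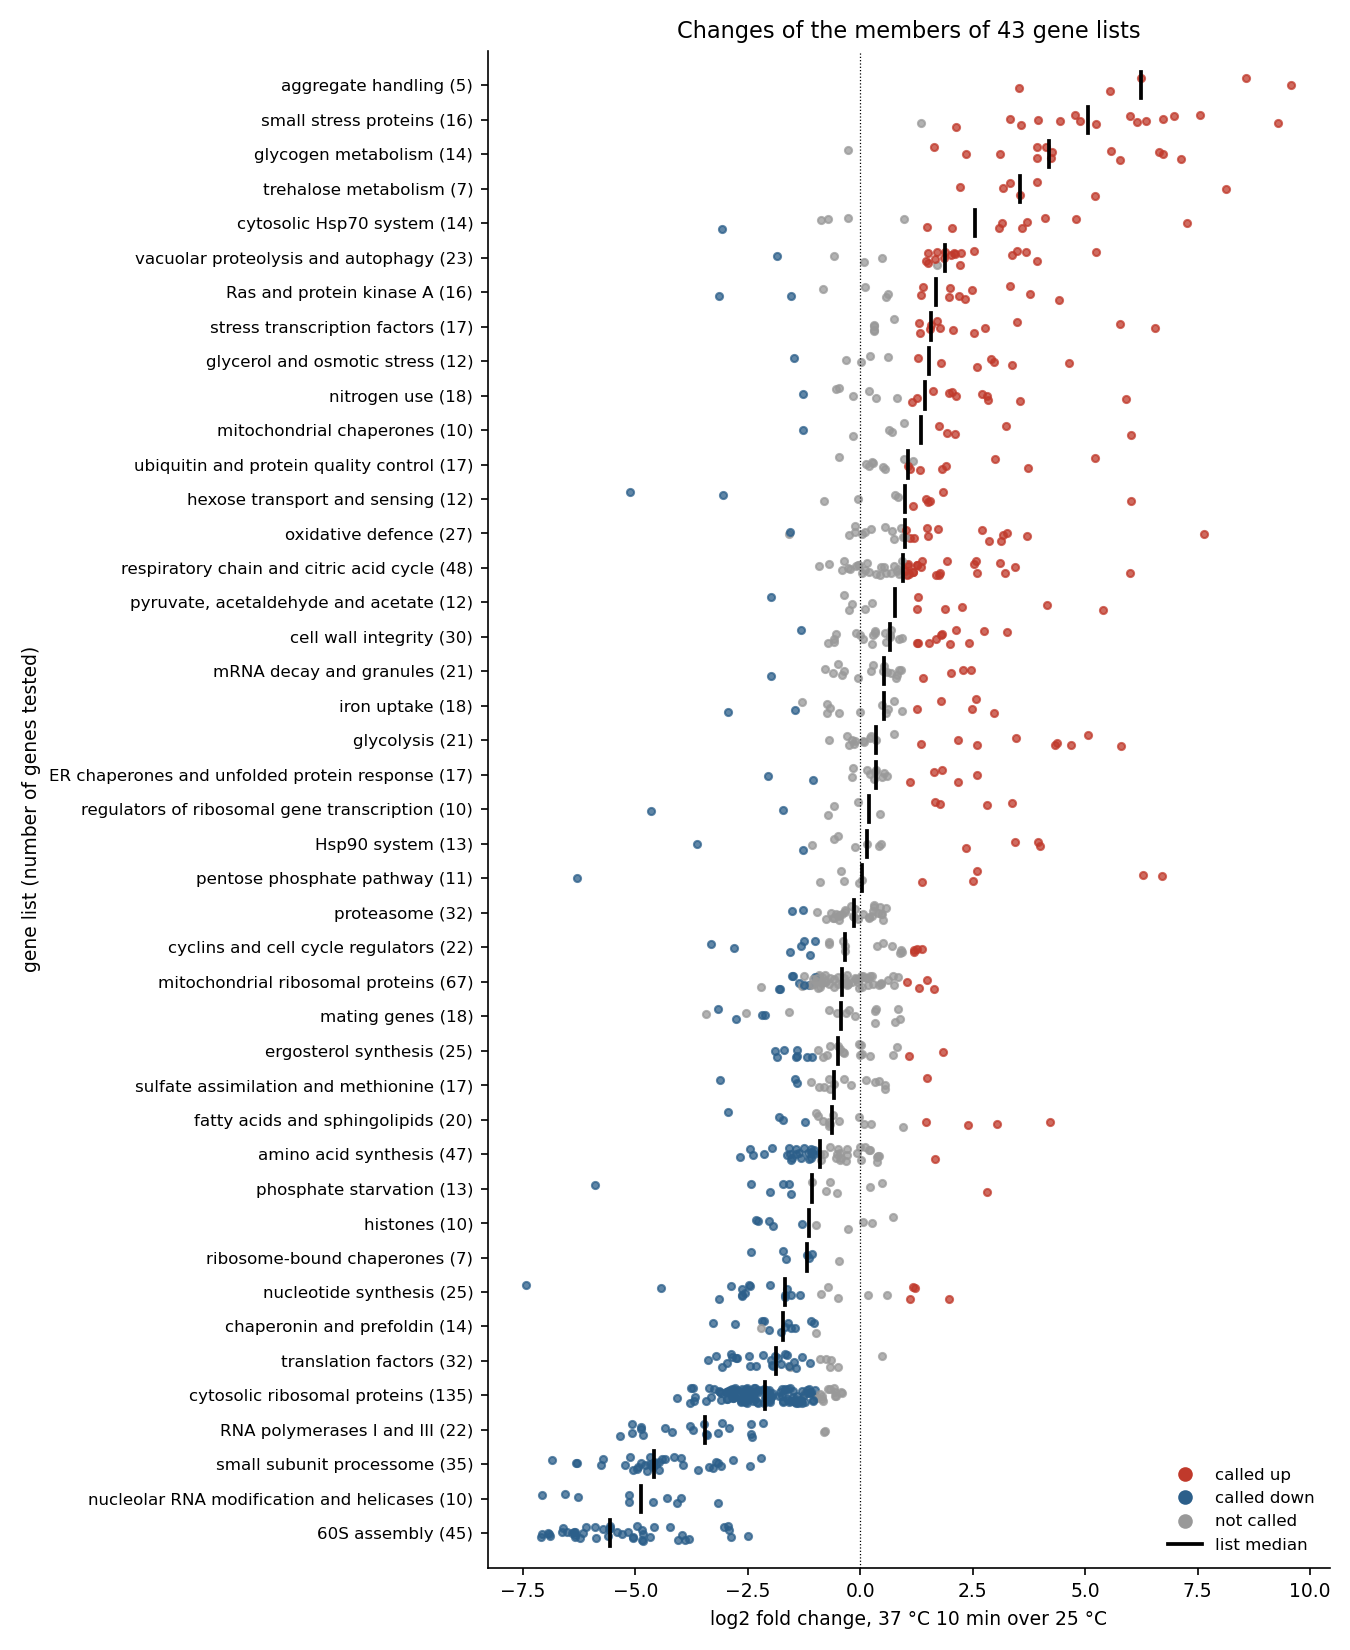
Change at 37 °C for 10 min relative to 25 °C (x axis, log2 fold change) of every tested member of 43 gene lists (rows, sorted by median), 1 point per gene, coloured by call, with a bar at each median. Aggregate handling and small stress proteins lie at one end, with medians of 6.25 and 5.06, and assembly of the large ribosomal subunit at the other, with -5.55.

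The genes that assemble ribosomes fell in 3 lists without exception. All 35 genes of the small subunit processome, which folds and cuts the precursor of the small subunit RNA, were called down, with a median of -4.59. All 45 genes of large subunit assembly were called down, with a median of -5.55. All 10 genes of nucleolar RNA modification were called down as well (median -4.87). RRP5 (YMR229C), which acts in the assembly of both subunits, had 4.63, 1.52 and 1.63 CPM at 37 °C for 10 min, against 244, 352 and 295 CPM at 25 °C. The groups were far apart, and the log2 fold change was -6.85 ± 0.50 (adjusted p = 5.78e-16, edgeR). NSR1, a nucleolin-like protein of the nucleolus, had 4.91, 10.7 and 2.45 CPM in heat and 534, 1127 and 685 CPM at 25 °C (-7.07 ± 0.56), and a dubious open reading frame overlaps it. NOP1, which methylates ribosomal RNA, fell by 4.62 ± 0.44, and CBF5, which makes pseudouridine in it, had a log2 fold change of -5.13 ± 0.34. The 45 large subunit genes held 0.0267 ± 0.00881% of counts at 37 °C for 10 min and 0.793 ± 0.0840% at 25 °C (SD, n = 3 each).

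A few assembly genes were almost without reads in heat. DHR2 (YKL078W), a helicase of small subunit assembly, had 3 counts in the 3 libraries at 37 °C for 10 min together, against 1753 at 25 °C, and its pooled count divided by the pooled TMM-scaled library size was 329 times higher at 25 °C (exact 95% interval 112 to 1597, counting error only). RLP7 had 3 counts in heat and 836 at 25 °C, for a ratio of 157 (53.5 to 762). SSF1 had 1 count in heat and 264 at 25 °C, for a ratio of 149 (26.4 to 5892). Counts this low fix the direction of the fall but give its size only within wide intervals.

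The polymerases that transcribe ribosomal RNA and transfer RNA fell with the assembly factors. Of 22 genes of RNA polymerases I and III, 20 were called down and none up (median -3.46). RPA135, the second largest subunit of polymerase I, had 35.7, 11.3 and 16.5 CPM at 37 °C for 10 min, against 691, 739.8 and 441 CPM at 25 °C (-4.88 ± 0.37). Among 32 translation factors 25 were called down and none up (median -1.86). YEF3, a fungal elongation factor, had 1371, 373 and 842 CPM in heat and 10135, 10223 and 6513 CPM at 25 °C, without overlap (-3.38 ± 0.39), and the scaffold TIF4631 fell by 3.21 ± 0.25. Translation factors held 0.527 ± 0.130% of counts in heat and 2.73 ± 0.0860% at 25 °C (SD, n = 3 each).

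The ribosomal proteins themselves fell less steeply and less evenly than their assembly factors. Of 135 cytosolic ribosomal protein genes tested, 120 were called down and none up, with a median of -2.12. RPL22A had 500.4, 401 and 375 CPM at 37 °C for 10 min, against 1469, 1134 and 1213 CPM at 25 °C, and fell by 1.58 ± 0.24 (adjusted p = 3.28e-07, edgeR). Its paralog RPL22B fell by 3.71 ± 0.34, and RPS26B by 4.07 ± 0.57 where RPS26A fell by 1.49 ± 0.39. Many of these paralogs are near identical, so counts of single copies are uncertain. Their summed share of counts was 2.70 ± 0.759% in heat and 10.9 ± 1.16% at 25 °C (SD, n = 3 each). The 67 mitochondrial ribosomal protein genes had 4 rises and 8 falls (median -0.40), below the 21% and 22.2% of all tested genes. These counts became 1 rise and 19 falls with library totals, and no fall at all remained without replicate 3 of either condition.

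Regulators of these genes changed in opposite directions. DOT6 and TOD6 encode related repressors that bind PAC. DOT6 had 1340.1, 1679 and 3429.8 CPM at 37 °C for 10 min, against 141, 297 and 179 CPM at 25 °C, and rose by 3.39 ± 0.55. TOD6 had 5.72, 3.96 and 8.99 CPM in heat and 115, 214 and 149.9 CPM at 25 °C, and fell by 4.65 ± 0.30. No library of one condition reached those of the other in either gene. STB3, a repressor that binds RRPE, rose by 2.82 ± 0.43. The activators were split, with SFP1 up by 1.66 ± 0.38 and IFH1 down by 1.73 ± 0.22. Without replicate 3 at 37 °C SFP1 was not called (0.97). The list of 10 had 4 rises and 2 falls, next to 21% and 22.2% of all tested genes. Its median of 0.20 became -0.34 with library totals.

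Precursor synthesis fell in part. Of 25 nucleotide synthesis genes 16 were called down and 4 up (1 with library totals), with a median of -1.66. URA7 (YBL039C), the main CTP synthase, had 1.09, 1.22 and 0.613 CPM at 37 °C for 10 min, against 159.8, 173 and 161 CPM at 25 °C, a log2 fold change of -7.43 ± 0.56 (adjusted p = 1.56e-15, edgeR). The heated values of URA7 stand for 4, 4 and 3 counts, so the size of its fall is uncertain. URA8, which encodes the second CTP synthase, had 179, 180.2 and 191 CPM in heat and 98.6, 87.0 and 58.4 CPM at 25 °C, and rose by 1.17 ± 0.33. With library totals URA8 was not called (0.70). The pair thus moved in opposite directions with no overlap in either gene. AAH1, an adenine deaminase, fell by 6.97 ± 0.43, and IMD4, which acts in GTP synthesis, by 4.43 ± 0.32. In amino acid synthesis 23 of 47 genes were called down and 1 up (median -0.89), but only 13 were called down without replicate 3 at 37 °C for 10 min and 15 without replicate 1 at 25 °C. ILV5 of the branched-chain pathway fell by 2.39 ± 0.43 and LYS1 of lysine synthesis rose by 1.67 ± 0.50.

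Protein breakdown was divided by route. Of 32 proteasome genes none was called up and 2, RPN13 (-1.52 ± 0.48) and PUP2 (-1.26 ± 0.50), were called down, with a median of -0.15. Neither was called without replicate 3 at 37 °C (-1.10 for RPN13 and -0.76 for PUP2) or without replicate 3 at 25 °C (-1.20 and -0.91), and PUP2 was also not called without replicate 1 at 37 °C (-1.17) or at 25 °C (-1.22). RPN4, the gene of the activator of proteasome genes, had 243, 199 and 340.3 CPM at 37 °C for 10 min, against 57.2, 49.6 and 80.9 CPM at 25 °C, and rose by 2.06 ± 0.27 (adjusted p = 9.69e-09, edgeR). The proteasome genes held 0.414 ± 0.126% of counts in heat and 0.568 ± 0.118% at 25 °C (SD, n = 3 each). Of 17 ubiquitin and quality control genes 8 were called up (5 with library totals) and none down, including the polyubiquitin gene UBI4 (3.73 ± 0.21) and the conjugating enzyme UBC4 (3.00 ± 0.52). Of 23 vacuolar and autophagy genes 18 rose and 1 fell (median 1.89), with the vacuolar protease PRB1 at 3463, 3662 and 4849 CPM in heat and 299.6, 344 and 288 CPM at 25 °C (3.68 ± 0.44).

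Of 48 genes of the respiratory chain and citric acid cycle 23 were called up (11 with library totals) and none down (2 without replicate 2 at 37 °C for 10 min), with a median of 0.96. NDE2, a minor NADH dehydrogenase, rose by 5.99 ± 0.56 from a few reads at 25 °C, and its main form NDE1 had -0.26 ± 0.25. In fatty acid and sphingolipid synthesis 4 of 20 genes rose and 4 fell, shares close to the 21% and 22.2% of all tested genes. There 10 fell with library totals and 7 without replicate 1 at 37 °C for 10 min. OLE1, the desaturase that makes unsaturated fatty acids, had 146, 133 and 146 CPM at 37 °C for 10 min, against 842, 1700.0 and 718 CPM at 25 °C, and fell by 2.94 ± 0.32. Ergosterol synthesis had 2 rises and 8 falls among 25 genes (median -0.49), next to 21% and 22.2% of all tested genes. It had 1 rise without replicate 3 at 37 °C for 10 min and 1 with library totals.

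Among 22 cyclins and regulators 4 were called up (none with library totals) and 7 down (4 without replicate 3 at 25 °C). Of all tested genes, 21% were called up and 22.2% down. The inhibitor FAR1 fell by 3.32 ± 0.31, the mitotic cyclin CLB1 by 2.80 ± 0.44 and the G1 cyclin CLN2 by 1.32 ± 0.29. Of 10 histone genes 5 were called down and none up, with only 2 called down without replicate 3 of either condition.

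The 10 min state was then set against 30 min at the same temperature. These libraries share the 37 °C 10 min samples with the comparison above, so the values stand side by side and the comparisons are not independent. Relative to 37 °C for 30 min, 514 genes were higher at 10 min (8.47% of those tested) and 628 were lower (10.3%). The split was 45.0% higher, and 21% with library totals, with which the median over all genes was -0.45 rather than -0.08. Without replicate 3 at 37 °C for 10 min, 410 genes were called lower.

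Heat shock and stress genes stood higher at 10 min than at 30 min. All 5 aggregate handlers, 10 of 14 cytosolic Hsp70 genes, 11 of 16 small stress protein genes, 5 of 7 trehalose genes and 11 of 14 glycogen genes were called higher, and none of these was called lower. SSA4 had 3387, 4553 and 3361 CPM at 10 min and 53.7, 87.3 and 159.9 CPM at 30 min (log2 fold change 5.23 ± 0.36, adjusted p = 8.9e-16, edgeR). ZPR1, a chaperone of the elongation factor EF1A, had 4495, 3095 and 3527 CPM at 10 min and 185, 225 and 367 CPM at 30 min (3.84 ± 0.23), and its 603, 652 and 554 CPM at 25 °C lay between. TDH1 went the other way, with 166, 471 and 401 CPM at 10 min and 1835, 2045 and 2923 CPM at 30 min (-2.71 ± 0.43). Of the 48 respiratory genes 33 were higher at 10 min and none lower, with a median of 1.52.

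Ribosome assembly genes stood lower at 10 min than at 30 min in 33 of 35 small subunit genes and 41 of 45 large subunit genes, with medians of -2.48 and -2.69. RRP5 had 4.63, 1.52 and 1.63 CPM at 10 min and 40.5, 52.2 and 62.9 CPM at 30 min (-4.33 ± 0.48), and both groups lay under the 244 to 352 CPM at 25 °C. Of the 135 ribosomal protein genes 70 were lower at 10 min and none higher, with a median of -1.16. OLE1 had 146, 133 and 146 CPM at 10 min and 3083, 1611 and 1832 CPM at 30 min (-3.94 ± 0.33), and 2 of the 3 values at 30 min lay above every value at 25 °C. INA1 (YLR413W) had 111, 49 and 75.2 CPM at 10 min and 4074, 2061 and 3979 CPM at 30 min (-5.43 ± 0.53). The chaperonin and prefoldin genes were not called in either direction.

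**Figure D4:**
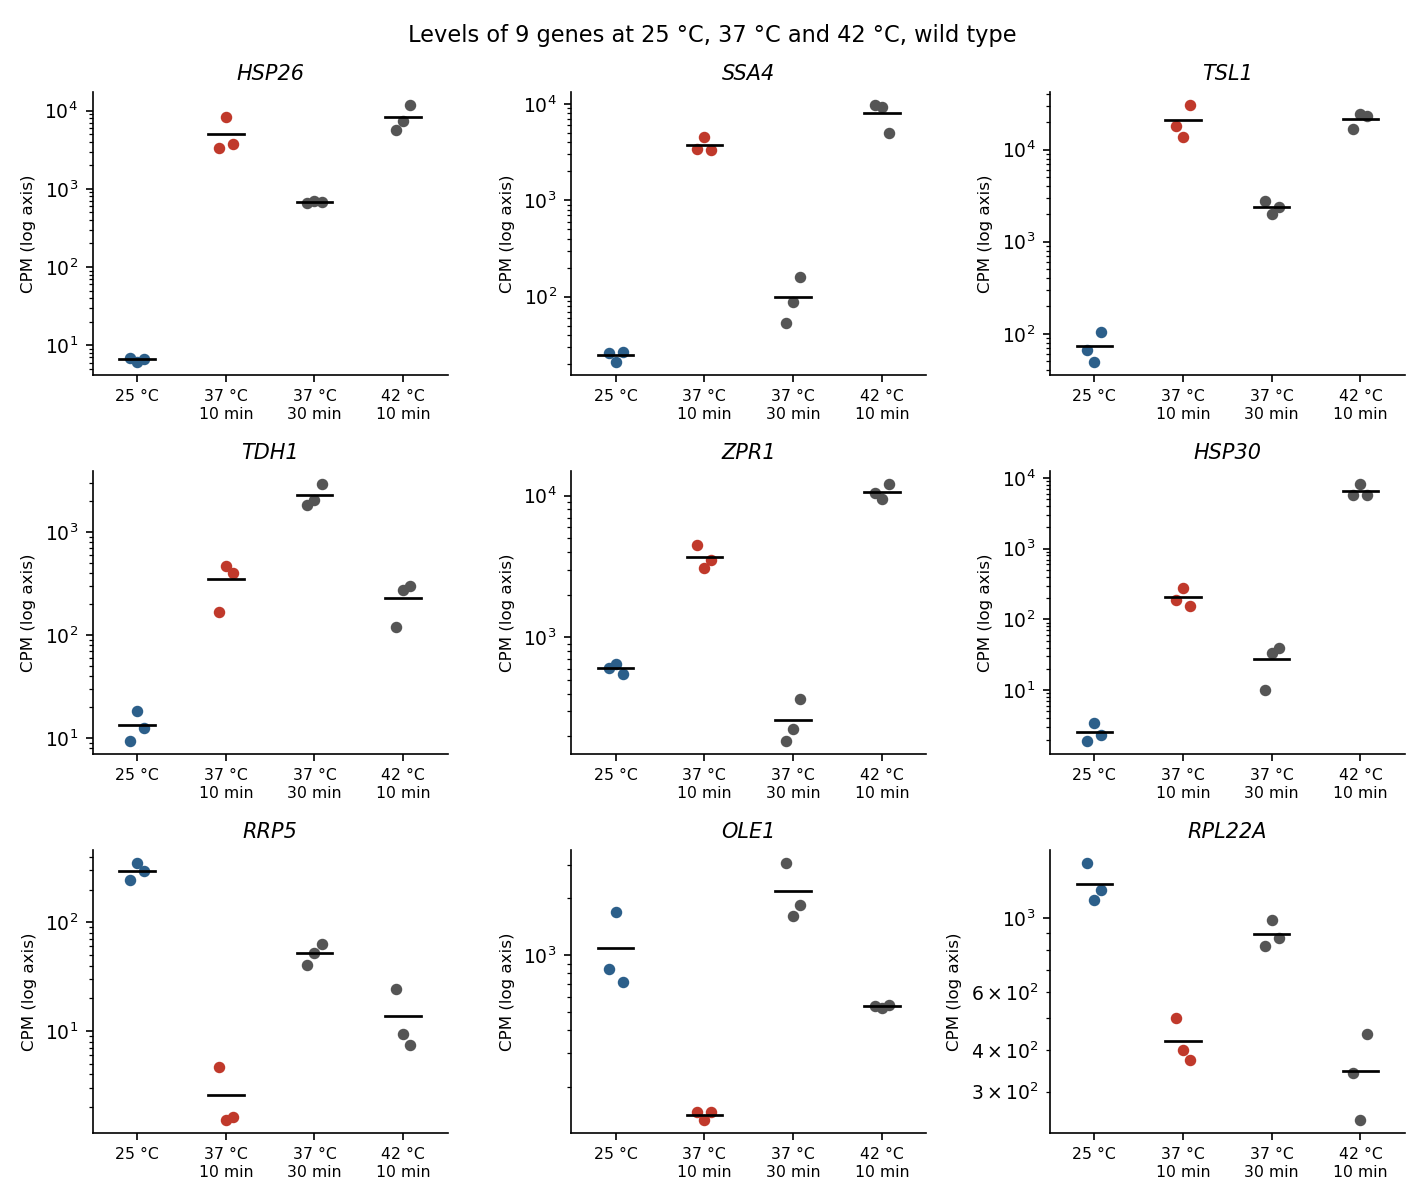
Levels of 9 genes (y axis, CPM on a log axis) in wild-type cells at 25 °C, at 37 °C for 10 min, at 37 °C for 30 min and at 42 °C for 10 min, with 3 libraries each as points and a bar at the mean. HSP26, SSA4 and TSL1 are high at 10 min and lower at 30 min, RRP5 and OLE1 are low at 10 min and higher at 30 min, and TDH1 is highest at 30 min.

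The same samples were also set against 42 °C for 10 min, the stronger shock at the same time. At 37 °C 402 genes were higher (6.62%) and 935 were lower (15.4%). When only the 6 libraries compared were fitted, 575 genes were called lower, and without replicate 1 at 37 °C 609 were called higher. Several chaperone genes stood lower at 37 °C than at 42 °C: 3 of 5 aggregate handlers, 5 of 14 cytosolic Hsp70 genes and 4 of 13 Hsp90 genes, with none higher. Without replicate 3 at 37 °C 2 of the Hsp70 genes were called lower and 2 higher, and without replicate 1 at 42 °C 3 were called lower and 1 higher. HSP104 had 5874, 5679 and 4102 CPM at 37 °C and 12312, 11019 and 9233 CPM at 42 °C (log2 fold change -1.06 ± 0.26, adjusted p = 0.0016, edgeR). HSP104 was not called without replicate 3 at 37 °C (-0.84), without replicate 1 at 42 °C (-0.90) or without replicate 2 at 42 °C (-0.96). It was also not called with the 6 libraries fitted alone (adjusted p = 0.0557, edgeR) or with no filter (-0.98). KAR2 had 10846, 6019 and 7248 CPM at 37 °C and 19952, 20693 and 16333 CPM at 42 °C (-1.24 ± 0.28). For HSP26, HSP42, CTT1 and TSL1 no difference was called, with log2 fold changes of -0.70 ± 0.52, -0.40 ± 0.41, -0.08 ± 0.41 and -0.05 ± 0.43.

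Single genes separated the temperatures far more. HSP30, a negative regulator of the plasma membrane proton pump, had 189.7, 277 and 154 CPM at 37 °C for 10 min, against 5652, 8220.2 and 5639.6 CPM at 42 °C for 10 min (-4.98 ± 0.68). MNC1 had 8.72, 11.6 and 2.04 CPM at 37 °C and 566, 249 and 377 CPM at 42 °C (-5.78 ± 0.54), and its 7.48, 13.2 and 13.9 CPM at 25 °C could not be told from those at 37 °C (adjusted p = 0.237, edgeR). DIA1 behaved likewise, with 20.4, 22.8 and 10.2 CPM at 37 °C and 1204, 661 and 721 CPM at 42 °C (-5.61 ± 0.39). In the opposite direction, SWI5, an activator of genes at the end of mitosis, had 128, 124 and 344 CPM at 37 °C and 23.7, 30.9 and 29.5 CPM at 42 °C (2.84 ± 0.30). ASH1, a repressor made in daughter cells, had 347, 369 and 678 CPM at 37 °C and 52.3, 63 and 92.5 CPM at 42 °C (2.75 ± 0.31). PCL1, a G1 cyclin, was higher by 3.22 ± 0.46. None of SWI5, ASH1 and PCL1 was called at 37 °C relative to 25 °C (0.91 ± 0.27, 0.70 ± 0.29 and -0.69 ± 0.39). At 25 °C SWI5 had 115, 101 and 101 CPM and ASH1 had 291, 316 and 250 CPM. PCL1 had 102, 88.7 and 150 CPM there. For each of these genes, every library at 42 °C for 10 min lay below every library at 25 °C. The difference between 42 °C and 25 °C was not tested. In all, 8 of the 22 cyclins and regulators were higher at 37 °C and none was lower. Assembly genes were lower at 37 °C than at 42 °C in 27 of 35 small subunit genes (median -1.62) and 25 of 45 large subunit genes (median -1.58). Not all of these calls held when single libraries were left out. UTP4 and NOG2 were not called without replicate 3 at 37 °C (-1.23 and -1.30) or without replicate 1 at 42 °C (-1.09 and -1.44).

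Promoter letters were counted in the 300 bases before the start of 5624 tested genes, on both strands. AGGGG stood in 22.8% of all promoters, in 45.1% of the 1193 called up, in 58.8% of the 238 that rose by at least 3 and in 11.7% of the 1306 called down. Genes with 2 or more copies, of which there were 200, had a median log2 fold change of 1.69, and 61% of them were called up, against 14.8% of the 4304 genes with neither AGGGG nor a heat shock element. A strict heat shock element, made of 3 alternating GAA and TTC units with 2 bases between them, stood in 0.907% of all promoters, in 2.01% of those called up and in 3.78% of those that rose by at least 3.

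RRPE stood in 9.82% of all promoters and in 54.9% of the 304 that fell by at least 3, and PAC in 7.31% of all and 52% of those. Both motifs together marked 159 genes with a median log2 fold change of -3.99, of which 87.4% were called down. RRPE was found before 40 of the 45 large subunit assembly genes, but before 9 of the 135 ribosomal protein genes. The proteasome element GGTGGCAAA, the site that Rpn4 binds, stood in 1.26% of all promoters and in 27 of the 32 proteasome promoters. AGGGG is short and several matches will be letters only, and a strict spacing misses heat shock elements with a mismatch. A match describes the sequence and is not evidence of binding.

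**Figure D5:**
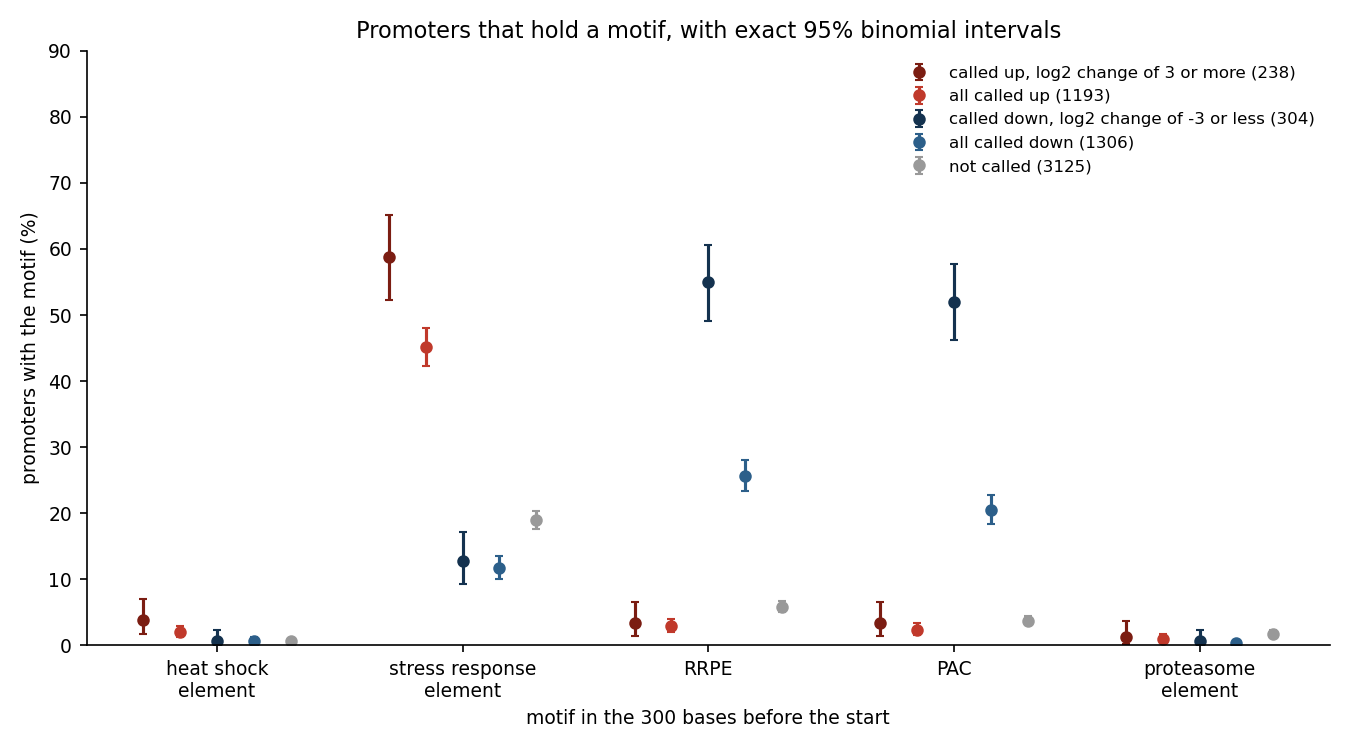
Share of promoters (y axis, percent, with exact 95% intervals for counting error) that hold each motif, for genes called up by at least 3 (238), all called up (1193), called down by at least 3 (304), all called down (1306) and not called (3125). The stress response element is commonest among the steep rises (58.8%), and RRPE and PAC among the steep falls (54.9% and 52%).

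The names of the deposited count files number 6 library sets. The libraries compared came from 3 of them, with 1 library of each condition in each, so the response could be read within sets. Of the 1274 genes called up, 757 rose by at least 1 on the log2 scale in each of the 3 sets, and of the 1347 called down 932 fell by as much in each. The genes were called from these same libraries, so these counts describe their spread and are no separate test. By the same thresholds, the authors' deposited table calls 1283 genes up and 1260 down. Of these genes in the authors' deposited table, 1209 and 1240 were also called here, which is 94.2% and 98.4% of the authors' genes and 94.9% and 92.1% of those called here.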

How the data were processed

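Poly(A) RNA was made into libraries with the SENSE mRNA-Seq kit V2 and read as 50 bp single reads on an Illumina HiSeq1500, per the labels. As deposited, each library holds unnormalized read counts of 7126 features. The submitters' processing notes name bcl2fastq 1.8.4, featureCounts 2.0.0 and build R64. Trimming and contextmap appear in the headers of the columns. Whether counting used the strand is not given in the sources used here, so genes that overlap another gene are uncertain. The authors also deposited log2 fold changes and false discovery rates (adjusted p-values), made with DESeq2 1.28.1 or DESeq per the submitters' processing notes, which were used only for the overlap of calls.

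Totals of all 60 libraries lay between 3848210 and 10142858 counts. By locus tag, 6048 features were found in the R64 reference, and the others took 0.459% of counts. Positions come from that reference, whose ends equalled those in the count tables for 5710 of 5721 single-exon features. A count of 0 was read against a floor of 3 counts, which is 0.613 to 0.913 CPM in the 3 libraries at 37 °C for 10 min and 0.298 to 0.572 CPM in those at 25 °C.

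Genes were filtered with filterByExpr (6070 kept, 1056 removed) and fitted over all 60 libraries with edgeR 4.0.16 in R 4.3.3, with a mean for each group, scaling by TMM and the two-sided quasi-likelihood F test. P-values were adjusted by Benjamini-Hochberg over all tested genes of a comparison. The common biological coefficient of variation was 0.276. Exact intervals are at 95% and cover counting error only. No pair of replicates looked like 1 library deposited in duplicate. Samples with the same replicate number deviated together between 37 °C for 10 min and 37 °C for 30 min (r = 0.19, 0.55 and 0.35). Between these groups the same number also meant the same library set, so number and set cannot be told apart. The main fit had no term for either. On simulated data of this design with 6070 genes, 66 of 100 genes with a simulated log2 change of 1.5 and 92 of 100 with one of 3 were recovered, with 6 false calls among 5870 unchanged genes. The simulation gave all libraries the mean levels of 25 °C, with equal numbers of simulated rises and falls. Far fewer genes changed in it than were called here. It therefore gives no error rate under a broad shift in the make-up of the libraries.

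The members and the gene lists were chosen with earlier results of these data known. Genes were named by a rule: HSF1, MSN2 and MSN4, up to 5 called members per list and direction, uncalled members where there are 5 or fewer, the 20 largest changes per direction against 25 °C and the 10 largest against the other conditions among called genes with a symbol, groups without overlap and a mean log2 CPM no lower than 3, and the paralogs of these. Those printed were picked from them with values in view. The symbol DUR1,2 was not matched. Alternatives were RLE size factors, library totals, no filter, DESeq2 1.42.0, a block for the replicate number, the compared libraries by themselves, a term for the library set, a stricter adjusted p (0.01) and the omission of single libraries. No library was left out of the results in the text unless stated.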

Additional observations from a re-analysis of the deposited data

Results flagged for a closer look

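The response at 10 min and 37 °C differed from that of the same strain state at another time or temperature, by a direct test between the libraries. At 37 °C for 10 min 514 genes were higher and 628 were lower than at 37 °C for 30 min. At 37 °C for 10 min 402 genes were higher and 935 were lower than at 42 °C for 10 min.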

How the results depend on the processing

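With library totals in place of TMM scaling, 803 genes were called up at 37 °C for 10 min relative to 25 °C, against 1274, and 1959 were called down, against 1347. Relative to 37 °C for 30 min, library totals gave 278 genes higher, against 514, and 1045 lower, against 628. In the comparison with 42 °C for 10 min, the 6 libraries alone gave 575 genes lower, against 935, and 40.7% of calls were higher, against 30.1%. Why these counts moved was not tested. In lists with few falls relative to 25 °C, library totals gave 3 falls against 1 in the cytosolic Hsp70 list, 5 against 2 in the proteasome, 4 against 2 among regulators of ribosomal genes, 4 against 1 among both cell wall and mRNA decay genes, 2 against 1 in the pentose phosphate pathway and in nitrogen use, and 1 against none in glycolysis, respiration and the ubiquitin list. Leaving out 1 library at a time gave 1182 to 1418 genes up and 1049 to 1317 down relative to 25 °C. It gave 423 to 746 higher and 410 to 662 lower relative to 37 °C for 30 min, with the 410 coming without replicate 3 at 37 °C for 10 min. It gave 307 to 609 higher and 658 to 905 lower relative to 42 °C for 10 min, with the 609 coming without replicate 1 at 37 °C for 10 min. No named gene changed direction relative to 25 °C while called, and 23 lost their call with library totals, 13 at an adjusted p under 0.01, 26 without replicate 3 at 37 °C for 10 min and 17 without replicate 3 at 25 °C.

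Same-numbered replicates did not deviate together between 37 °C for 10 min and 25 °C (r = 0.34, -0.27 and -0.23), so the numbers are not a pairing there. Libraries of the same set had r = 0.03, -0.003 and 0.50 between these conditions. With the replicate number as a block, 1273 genes were up and 1342 down relative to 25 °C, 514 were higher and 635 lower relative to 37 °C for 30 min, and 404 were higher and 950 lower relative to 42 °C for 10 min. The block moved no count of calls by over 1.5 times. With a term for the library set, 1280 genes were up and 1430 down relative to 25 °C. That term gave 533 higher and 721 lower relative to 37 °C for 30 min. Relative to 42 °C for 10 min it gave 397 higher and 1081 lower. Genes near the floor in heat, such as DHR2, SSF1 and RLP7, are limited by depth, and their ratios carry wide counting intervals.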

Other observations

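Further gene groups were read at 37 °C for 10 min relative to 25 °C, a comparison in which 21% of all tested genes were called up and 22.2% down. Nitrogen use genes were called up in 11 of 18 cases and down in 1 (none without replicate 2 or without replicate 3 at 37 °C for 10 min), with a median of 1.44. Among the rises were CAR2, which breaks down ornithine (5.91 ± 0.76), and the proline permease PUT4 (3.55 ± 0.62). PUT4 had 700.4, 573 and 653 CPM in heat and 61.2, 52.1 and 50.8 CPM at 25 °C, with no overlap. Phosphate starvation genes were called down in 6 of 13 cases and up in 1 (median -1.07). PHO84, the high-affinity phosphate transporter, had 7.90, 27.4 and 3.68 CPM in heat and 836, 975 and 447 CPM at 25 °C (-5.89 ± 0.63), while the phosphatase PHM8 rose by 2.83 ± 0.34. Iron uptake genes had 5 rises and 2 falls among 18, near or below the shares of all tested genes, and 1 fall without replicate 3 at 37 °C for 10 min and 5 with library totals. They included the cell wall protein FIT2 up by 2.58 ± 0.37 and the reductase FRE1 down by 2.93 ± 0.32.

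Cell wall genes had 11 rises and 1 fall among 30 (median 0.67). SED1, a major wall protein, had 11297, 24016 and 48133 CPM in heat and 2692, 6367 and 3394 CPM at 25 °C (2.74 ± 0.64), with the 3 heated libraries spread over a wide range. Mating genes had 4 falls and no rise among 18 (8 falls with library totals, and 1 rise without replicate 2 or 3 of either condition), a share of falls near that of all tested genes, with the pheromone receptor STE3 at -2.11 ± 0.29. Sulfate and methionine genes had 1 rise and 3 falls among 17, below the shares of all tested genes (no rise and 7 falls with library totals, and 1 fall without replicate 3 at 37 °C for 10 min). Genes of mRNA decay had 4 rises and 1 fall among 21, near or below those shares, with the decapping enhancer EDC2 at 2.47 ± 0.23.

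YNL194C, which has no symbol in the annotation and so fell outside the naming rule, had a log2 fold change of 9.88 ± 0.89, above that of HSP26, and was picked after its value was seen.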
